A study of Drosophila melanogaster and Drosophila simulans and Drosophila yakuba with 27 samples.

Results

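Gene expression in the eye-antennal imaginal disc was compared with that in the larval brain across 9 lines of Drosophila, with 1 library of each tissue from each line. The 18 libraries were chosen by the labelled tissue, 9 from eye-antennal discs and 9 from brains, out of 27 libraries in all; the other 9, from wing discs, entered the fit that gave the spread, and their levels are set beside a few results. Of the 9 lines, RAL-208 (genotype DGRP-208) and Canton S are D. melanogaster strains, and each other line is of its own species. D. simulans w[501] and D. ananassae In(3R)A carry those genotypes, and D. virilis, D. mojavensis, D. willistoni, D. pseudoobscura and D. yakuba are labelled as wild type. All larvae were wandering and in the last instar, had been raised at 25 °C on standard food and were dissected in PBS. The labels do not say how many animals went into a library, nor whether the ventral nerve cord was left on the brain. Each line, with a single library per tissue, served as a pair, and the 9 lines, which share ancestry, as the replicates.

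The eye-antennal disc is an epithelial sac that gives rise to the compound eye, the ocelli, the antenna, the maxillary palp and the head capsule. At the wandering stage a wave of differentiation, the morphogenetic furrow, crosses its eye field and leaves clusters of young photoreceptor neurons behind it, so that the disc holds dividing epithelium and new neurons at the same time. The larval brain holds working larval neurons and glia as well as neuroblasts, the stem cells that produce adult neurons, and the optic lobe, which receives the photoreceptor axons. Many regulators of eye development, among them the Pax6 genes, also act in the brain.

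Levels are the deposited normalised signal. In D. melanogaster it equals the read count divided by 1 constant per gene and 1 factor per library. For the other species this was not checked. A difference is the log2 of the signal plus 1 in the eye-antennal disc minus that in the brain, with the standard error (SE) of a limma fit over 7677 genes with line as a block. A gene is called at an adjusted p under 0.05. Because the signal of a dissected tissue is an average over its cells, fewer cells of a type and less RNA per cell cannot be told apart.

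The labels of both tissues were checked against marker genes, and some libraries stood apart. Of 12 brain markers, the median level in the eye-antennal library, as a percent of that in the brain, was 19.4% for both D. simulans and RAL-208, 12.3% for Canton S, 10.2% for D. mojavensis and 1.41% to 4.72% for the other 5 lines. The summed level of these markers ran from 11.2 to 133 in the eye-antennal disc and from 309 to 664 in the brain. The 9 eye markers stood in the brain at 8.47% to 15% of their eye-antennal level, and at 27% in RAL-208, with a median summed level of 69.6 in the brain against 338 in the disc. No marker of either list was at 0 in every library of a tissue. The D. virilis eye-antennal library differed from the others by gene length. Its median log2 difference from the brain was 0.38 for 1817 genes with at most 1346 exonic bases and fell to -0.74 for 1816 genes with at least 3605, a gap of -1.12 between long and short genes. In the other 8 lines that gap lay between -0.39 and 0.16. Many counts below are therefore also given for the 4 lines D. yakuba, D. ananassae, D. pseudoobscura and D. willistoni, that is, without D. virilis and the 4 lines with brain markers above 10%. Where no such count is given, it need not be the same. The 12 brain markers include VGlut, Gad1, VGAT, ple, hug, Dms, Ilp2, cas and wor. For these genes, and for lists that hold them, values in the 4 lines are not independent of how lines were left out.

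**Figure D1:**
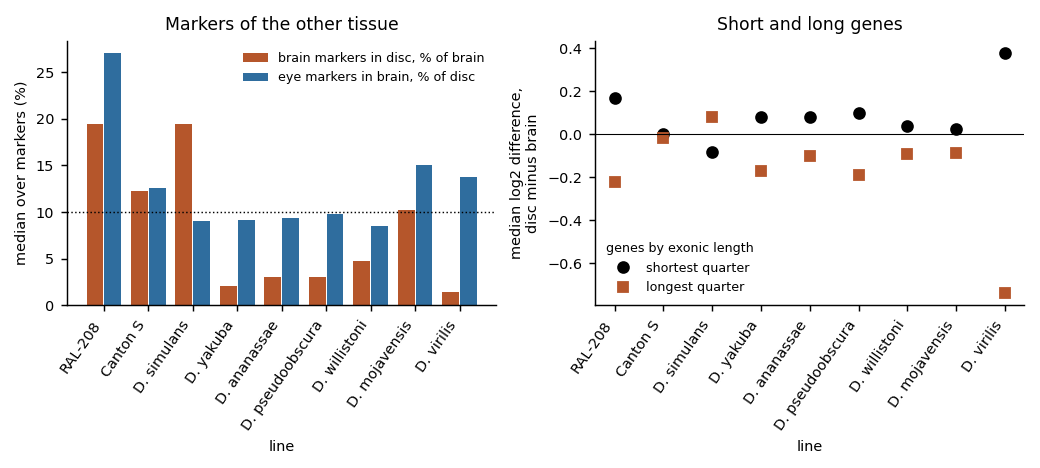
Left, the median level of the markers of the other tissue as a percent of the level in their own tissue, for 12 brain markers in the eye-antennal disc and 9 eye markers in the brain, by line, with a dotted line at 10%. Right, the median log2 difference, eye-antennal disc minus brain, of the 1817 shortest and the 1816 longest genes by exonic length; D. virilis stands apart at 0.38 and -0.74.

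Calls were divided nearly evenly between the tissues, and the larger differences lay on the side of the brain. Of 7677 genes, 4039 were called (52.6%): the disc had the higher level for 1978 (25.8%) and the brain for 2061 (26.8%). The 9 libraries of the tissues did not overlap for 774 genes (10.1%), of which 220 were higher in the disc (2.87%) and 554 in the brain (7.22%). Among the genes higher in the disc, 579 differed by at least 2-fold, 140 by at least 4-fold and 3 by at least 8-fold. Among those higher in the brain these numbers were 925, 477 and 102, and 11 differed by at least 16-fold. The median size of a called difference was 0.559 on the log2 scale for genes higher in the disc and 0.814 for genes higher in the brain. A single sign held in all 9 lines for 1116 and 1382 of the called genes. In the 4 lines named above, 1405 and 1518 of these genes were called again, and 2 of the 2061 had the opposite sign. The total of 4039 rests on the comparison within lines, and was 2122 (912 and 1210) without the line as a replicate block. With edgeR on the D. melanogaster counts alone, 1988 of 9041 genes were called. That fit also had the line as a term and left 2 residual degrees of freedom. Of 141 genes called, named in the text and tested by edgeR, 31 were not called by it, all with the same sign. At the other end, 453 genes had a 95% interval of the difference within 0.2 of 0, and 3441 within 0.5.

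**Figure D2:**
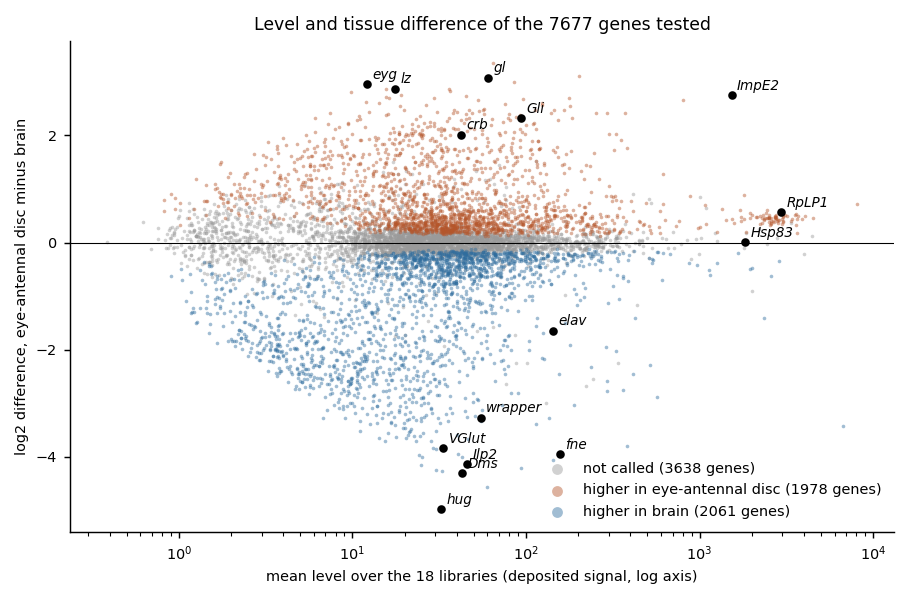
Mean level over the 18 libraries (deposited signal, log axis) against the log2 difference, eye-antennal disc minus brain, for 7677 genes, with 1978 genes called higher in the eye-antennal disc in orange, 2061 called higher in the brain in blue and genes that were not called in grey. The brain side reaches further from 0, down to -4.98 for hug, against 3.35 on the side of the disc.

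The genes that set up the eye field were mostly on the side of the disc. Of 11 retinal determination genes, 8 were called higher there and toy, tsh and tio were not called; the median difference of the list was 0.70, and 7 were called in the 4 lines. The phosphatase and cofactor gene eya (FBgn0000320) stood at 83.2 to 198 in the disc, with a median of 132, and at 16 to 41.6 in the brain, with a median of 22.7. The tissues did not overlap, and RAL-208 had the highest brain level. The difference was 2.39 with an SE of 0.19, or 5.23-fold. Its DNA-binding partner so (FBgn0003460) followed with levels of 36.6 to 90.0 in the disc against 7.43 to 19.9 in the brain and a difference of 2.32 (SE 0.15). The Pax genes eyg and toe, which promote growth of the eye field, differed by 2.95 (SE 0.12) and 2.81 (SE 0.15), again with no overlap. The homeobox gene hth, which keeps eye progenitors undifferentiated and also specifies antenna, was 2.22-fold higher in the disc, with 115 to 194 against 46.8 to 105.

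Of the Pax6 genes at the head of this network, toy was not called and ey differed by less than 2-fold. The level of toy (FBgn0019650) ran from 78.7 to 193 in the disc, with a median of 118, and from 70.7 to 177 in the brain, with a median of 83.4. It was higher in the disc in 5 lines and in the brain in 4, and its extremes were 1.43 in D. simulans and -0.58 in D. virilis. Its difference of 0.24 (SE 0.38) was not called (adjusted p = 0.627). The other Pax6 gene, ey (FBgn0005558), was named after its values were seen. It stood at 42.3 to 75.5 in the disc and 26.6 to 43.5 in the brain, higher in the disc in all 9 lines, with a difference of 0.70 (SE 0.27, adjusted p = 0.0335). That call was lost in the 4 lines (difference 0.87, adjusted p = 0.169) and when Canton S, D. simulans, D. yakuba or D. pseudoobscura was left out, with differences of 0.73, 0.60, 0.69 and 0.67 for ey, and with 0.1 or 0.5 in place of 1 added to the signal. In the wing disc the medians were 2.90 for toy and 1.65 for ey. The zinc finger gene tsh, which acts in progenitors of the eye field, was not called at 0.033 (SE 0.086), nor was its paralog tio at 0.068 (SE 0.12), which was also named after its values were seen.

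Genes of the morphogenetic furrow and of photoreceptor fate gave 19 higher in the disc and 2 higher in the brain of 24. Their median was 1.23. In the 4 lines they gave 19 and 1, and 17 and 1 with D. virilis added to them. The zinc finger gene gl (FBgn0004618), which every photoreceptor needs, was among the genes with the largest differences of all. Its level in the disc was 37.2 to 142 with a median of 112, and in the brain 6.19 to 26.6 with a median of 9.68. The lowest disc level was that of D. virilis and the highest brain level that of RAL-208, and the tissues did not overlap. The difference was 3.08 (SE 0.40), 8.45-fold; with edgeR on the D. melanogaster counts gl was not called (adjusted p = 0.0798). The proneural gene ato, which founds the first photoreceptor of each cluster, stood at 50.7 to 103 against 10.2 to 20.7, a difference of 2.41 (SE 0.24). The homeobox gene ro, which refines ato expression, differed by 2.60 (SE 0.21), the Runx gene lz, which specifies cone cells and later photoreceptors, by 2.87 (SE 0.27), and the rhomboid protease gene ru, which releases EGFR ligands, by 2.48 (SE 0.27). The Runx gene run went the other way at -0.91 (SE 0.20), with 2.02 to 10.8 in the disc and 6.56 to 17.6 in the brain. The adaptor gene phyl, which targets a repressor of neuronal fate for degradation, was not called at -0.23 (SE 0.15), with medians of 34.4 and 39.8. The receptor gene sev and the homeobox gene B-H2 had no value in 1 line each and were not tested; both were higher in the disc in the 8 lines measured, with median differences of 1.53 and 2.18.

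Many genes of the mature photoreceptor were at low levels in both tissues. Of 24 genes for phototransduction and photoreceptor maturation, 14 were not tested, 10 of them for low values, such as the main rhodopsin gene ninaE, whose highest level in any of the 18 libraries was 0.191. Of the 10 tested, 4 were higher in the disc and 2 in the brain (5 and 1 in the 4 lines). The leucine-rich repeat gene chp, whose product lies on photoreceptor membranes, had the largest difference on the side of the disc, with 6.69 to 222 there against 2.96 to 31.1 in the brain, and a difference of 2.47 (SE 0.48). The eye protein kinase C gene inaC stood at 1.62 to 31.3 against 0.325 to 5.6, a difference of 2.31 (SE 0.30). By contrast eys, which encodes a secreted proteoglycan of the lumen between photoreceptors, was higher in the brain in all 9 lines, with 8.66 to 17.3 against 0.298 to 7.20, and a difference of -2.31 (SE 0.23). Of 9 tested eye pigment genes, 2 were higher in the disc and 2 in the brain (22.2% each), below the 25.8% and 26.8% of all genes. The transporter genes w at 1.64 (SE 0.31) and st at 1.56 (SE 0.29) were higher in the disc. However, w was at -0.9 in D. mojavensis and st at -0.0069 in Canton S. The genes for vesicle trafficking car and dor were higher in the brain at -0.55 (SE 0.10) and -0.25 (SE 0.063). The level of w in D. simulans w[501], a white mutant stock, was 13.4 in the disc and 1.35 in the brain, within the range of the other lines in both tissues.

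**Figure D3:**
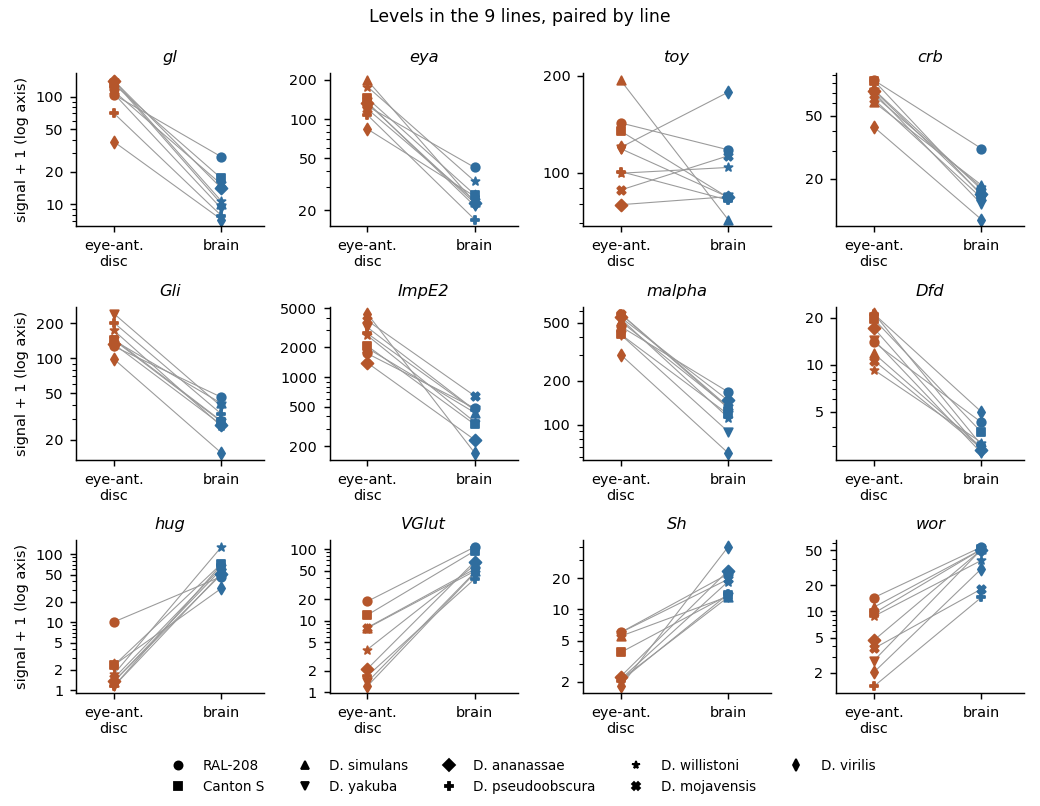
Levels (deposited signal plus 1, log axis) of 12 genes in the eye-antennal disc (orange) and the brain (blue), with 1 symbol per line and a grey line joining the tissues of a line. The tissues do not overlap for any gene but toy, which is higher in the disc in 5 lines and in the brain in 4.

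Antennal patterning genes were split between the tissues, with 5 called higher in the disc and 4 in the brain of 11. In the 4 lines the counts were 4 and 2. The bHLH-PAS gene ss (FBgn0003513), which makes distal antenna differ from leg, stood at 5.20 to 18.4 in the disc and 0.758 to 4.32 in the brain, a difference of 2.42 (SE 0.15) with no overlap. The zinc finger gene odd, which acts at joints, differed by 1.82 (SE 0.13), and the homeobox gene al, which acts in the distal antenna, by 1.49 (SE 0.19). The appendage selector Dll differed less, at 0.81 (SE 0.14), with 18 to 81.4 in the disc and 13.9 to 51.1 in the brain. Higher in the brain were the BTB gene bab1, at -1.51 (SE 0.23), and the homeobox genes ct, at -1.13 (SE 0.16), and Lim1, at -0.55 (SE 0.16); the call of Lim1 was lost in the 4 lines. All 3 are known regulators of antennal development. For ct the disc level was 7.10 to 24.7 and the brain level 13.4 to 58.4, against a median of 5.51 in the wing disc.

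The Hox genes divided between the tissues. The head genes Dfd (FBgn0000439), which specifies the maxillary segment, and lab (FBgn0002522), the most anterior Hox gene, were higher in the disc, and 5 genes were higher in the brain; Scr was not called. Dfd stood at 8.26 to 20.2 in the disc, with a median of 13.4, and 1.73 to 3.99 in the brain, with a median of 2.06. No brain library reached a disc library, and the difference was 2.15 (SE 0.17). For lab the levels were 4.79 to 10.5 and 0.753 to 1.44, and the difference 1.96 (SE 0.14). Higher in the brain were pb, a gene of the mouthparts, at -1.09 (SE 0.13), with 0 to 0.585 in the disc and 1.47 to 2.96 in the brain, and Ubx at -1.33 (SE 0.29). Antp, a thoracic gene, was higher in the brain at -1.96 (SE 0.22), and the abdominal genes abd-A and Abd-B at -2.35 (SE 0.25) and -1.30 (SE 0.15). In the brain abd-A stood at 4.15 to 11.5 in every line, and in the disc at 0 to 3.42. Expression of the abdominal genes in the larval nervous system is known from the ventral nerve cord, which the labels do not mention. The gene Scr was not called at -0.52 (SE 0.38), with differences from -2.90 in D. virilis to 1.57 in D. mojavensis.

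Genes of epithelial structure were higher in the disc as a group. Of 11 genes for apical polarity and adherens junctions, 8 were higher in the disc and 2 in the brain, with a median of 0.61; in the 4 lines 8 were higher in the disc and the other 3 were not called. The apical determinant crb (FBgn0259685) stood at 41.5 to 82.9 in the disc, with a median of 69.3, and at 10.1 to 30.1 in the brain, with a median of 15.1. Every disc library was above every brain library, and the wing disc had a median of 75.5. The difference was 2.01 (SE 0.10), 4.03-fold. The E-cadherin gene shg differed by 1.29 (SE 0.082) and the adhesion gene ed by 1.39 (SE 0.11). In contrast the α-catenin gene alpha-Cat, whose product links cadherins to actin in most cell types, was slightly higher in the brain at -0.23 (SE 0.057), a call lost in the 4 lines. Septate junctions seal epithelia and the glial blood-brain barrier. Of 12 of their genes, 10 were higher in the disc, with a median of 1.65. In the 4 lines 9 were, and 8 with D. virilis added to them. The gliotactin gene Gli (FBgn0001987) stood at 97.8 to 242 against 14.4 to 45.4, with a difference of 2.32 (SE 0.13), 5-fold. The claudin-like genes sinu and pck differed by 1.77 (SE 0.083) and 1.73 (SE 0.083) and the contactin gene Cont by 1.70 (SE 0.068). The sodium pump gene Atpalpha, which neurons also use to restore ion gradients, was higher in the brain at -0.60 (SE 0.11).

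Planar polarity genes, which orient ommatidia and bristles, gave 6 of 7 higher in the disc with a median of 2.01, the same count as in the 4 lines. The genes Vang and dsh had no value in D. simulans and were not tested. In each of the 8 lines measured Vang was higher in the disc and dsh in the brain, with median differences of 0.58 and -0.46. The core gene dgo differed by 2.22 (SE 0.11), and the genes of the Fat system fj, ds and ft by 2.19 (SE 0.13), 2.11 (SE 0.14) and 2.01 (SE 0.13). The cadherin gene stan, which also guides axons and dendrites, was not called at -0.13 (SE 0.19). Its medians were 60.8 in the disc and 48.7 in the brain, and D. virilis had the lowest disc level, 12.5.

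Cuticle and matrix genes were on the side of the disc. All 12 tested genes for cuticle and chitin were called higher there, with a median of 2.37, and 11 in the 4 lines. The ecdysone-inducible gene ImpE2 (FBgn0001254) had disc levels of 1399 to 4400, with a median of 2648, and brain levels of 170 to 645, with a median of 436. The tissues did not overlap, and D. virilis held both the highest disc and the lowest brain level. The difference was 2.75 (SE 0.22), and 2.51 without D. virilis. The chitin deacetylase genes serp and verm differed by 2.56 (SE 0.19) and 2.54 (SE 0.15), and the chitin-binding gene Gasp by 2.47 (SE 0.21). Of 126 cuticle protein genes in the table, 31 had a value in every library and passed the filter on low values, and 18 of these were called higher in the disc (10 without the line as a block, 7 with edgeR on the D. melanogaster counts). TwdlE led with 14.8 to 210 against 4.18 to 30.4 and a difference of 2.66 (SE 0.32). The larval cuticle genes Lcp1 and Lcp2 carried the same values in 5 of the 9 lines in both tissues, so that they cannot be told apart there, and neither was called; both were called higher in the disc in the 4 lines, at 3.82. In the basement membrane the laminin genes LanA, LanB2 and LanB1 were higher in the disc at 1.53 (SE 0.15), 1.26 (SE 0.091) and 1.25 (SE 0.12), as was the perlecan gene trol at 0.60 (SE 0.17), out of 6 genes tested; the call of trol was lost in the 4 lines. LanA stood at 80.8 in its highest brain library, above its lowest disc library at 55.8. Of the matrix genes with no value in 1 line, which were not tested, Pxn was higher in the brain in all 8 lines measured, by a median of -0.52. Cg25C and vkg were higher in the disc in 7 and 6 of 8 lines, and BM-40-SPARC in 4.

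**Figure D4:**
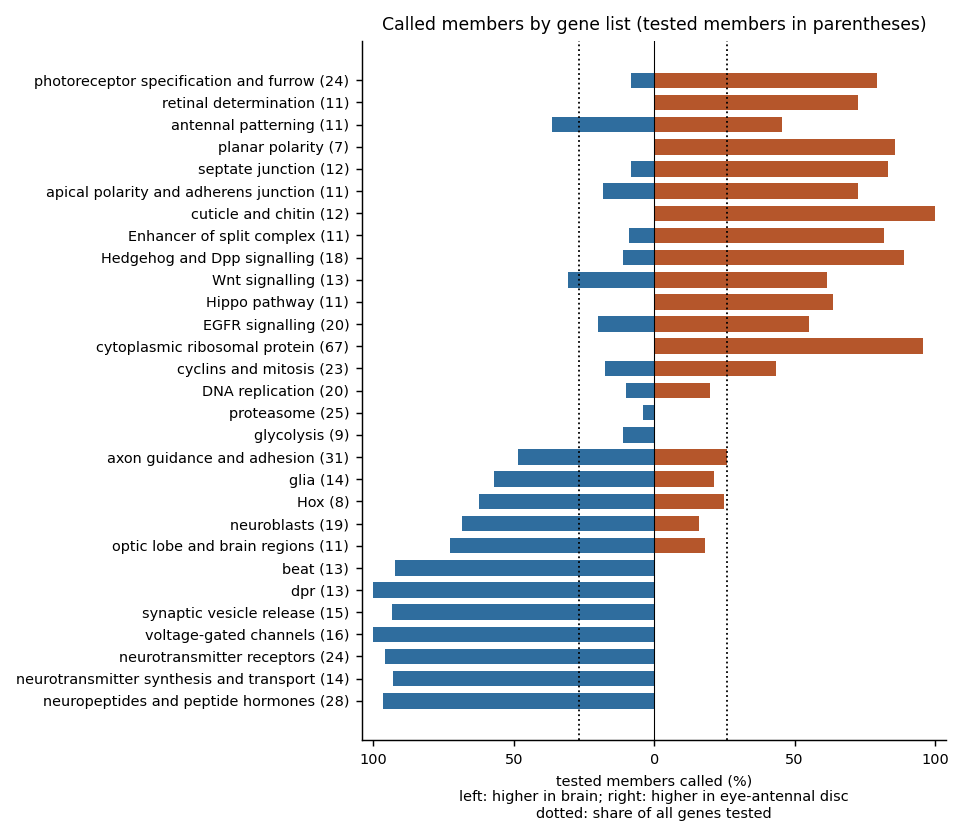
Share of the tested members of 29 gene lists called higher in the eye-antennal disc (orange, to the right) or in the brain (blue, to the left), with the number tested in parentheses. Dotted lines mark the shares over all 7677 genes, 25.8% and 26.8%.

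Notch signalling was higher in the disc at the ligands and targets and mostly not called at the processing machinery. The ligand genes Ser and Dl differed by 1.5 (SE 0.13) and 1.37 (SE 0.093). The receptor gene N had no value in D. simulans and was not tested; it was higher in the disc in all 8 lines measured, with a median difference of 1.43. Of the 12 tested genes, 4 were called higher in the disc and 8 were not called, among them the γ-secretase gene nct at 0.057 (SE 0.067) and the coactivator gene mam at -0.33 (SE 0.16). The Enhancer of split complex holds direct Notch targets, and 9 of its 11 genes were higher in the disc, with a median of 1.46, and again 9 in the 4 lines. Its Bearded-type gene malpha (FBgn0002732) stood at 302 to 578 in the disc, with a median of 512, and 63.0 to 167 in the brain, with a median of 129. The tissues did not overlap, and D. virilis was lowest in both. The difference was 2.02 (SE 0.072). The bHLH repressor gene HLHmdelta, which acts in the eye, differed by 2.34 (SE 0.17), with medians of 150.0 and 28.4. The member m6 was called higher in the brain at -1.83 (SE 0.20), with 21.3 to 74.6 there and 5.29 to 22.3 in the disc.

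In the EGFR pathway, which recruits photoreceptors after the first, 11 of 20 genes were higher in the disc and 4 in the brain. The receptor gene Egfr (FBgn0003731) stood at 52.4 to 143 in the disc and 17.5 to 58.6 in the brain, higher in the disc in all 9 lines, with a difference of 1.75 (SE 0.12). The Ets repressor gene aop differed by 1.45 (SE 0.11), the ligand gene Krn by 1.06 (SE 0.10) and the secreted inhibitor gene aos by 1.02 (SE 0.10). Of the core transducers, Ras85D was slightly higher in the brain at -0.21 (SE 0.052), a call lost in the 4 lines, and the MEK gene Dsor1 was not called at -0.17 (SE 0.11). The ubiquitin ligase gene Cbl, which downregulates the receptor, had the largest difference on the side of the brain, at -1.13 (SE 0.15). In the 4 lines 12 genes were higher in the disc and 2 in the brain, but 7 and 2 with D. virilis added to them.

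Hedgehog and Dpp drive the furrow, and 16 of 18 genes of these pathways were higher in the disc, with a median of 0.81. The counts were the same in the 4 lines, and 14 were higher in the disc with D. virilis added to them. The ligand gene hh (FBgn0004644) had disc levels of 3.84 to 44.1, with a median of 34.9, and brain levels of 0.53 to 12.8, with a median of 8.20. The tissues overlapped across lines, but hh was higher in the disc within each of the 9, by 1.38 to 3.09. Its difference was 1.99 (SE 0.13), and that of dpp 1.75 (SE 0.12). The coreceptor genes ihog and boi differed by 1.82 (SE 0.10) and 1.38 (SE 0.12) and the transcription factor gene ci by 1.69 (SE 0.11). The Co-Smad gene Med, which serves all cells that receive Dpp or activin, was higher in the brain at -0.46 (SE 0.064).

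Wnt genes divided by ligand, with 8 of 13 higher in the disc and 4 in the brain (8 and 3 in the 4 lines). Wnt6 was higher in the disc at 2.05 (SE 0.15) and Wnt2 at 0.97 (SE 0.15), whereas Wnt4 and Wnt10 were higher in the brain at -1.74 (SE 0.25) and -2 (SE 0.17). For Wnt4 the brain level was 46.8 to 77.9 and the disc level 7.49 to 32.6, with no overlap. The ligand gene wg had no value in D. simulans; it was higher in the disc in the 8 lines measured, by a median of 2.08. The receptor gene fz3, a target of Wg, differed by 2.11 (SE 0.17), and the receptor gene fz2 was not called at 0.10 (SE 0.091). The Hippo pathway restrains growth through the kinase Wts, and the list holds members that act with it and against it. Of its 11 genes tested, 7 were higher in the disc and the rest not called, with a median of 0.61. The myosin gene d, which opposes Wts, differed by 2.01 (SE 0.11), and ex, which activates the pathway, by 1.70 (SE 0.12). The JAK/STAT genes Stat92E and dome, the transcription factor and the receptor, were modestly higher in the disc at 0.44 (SE 0.089) and 0.45 (SE 0.083).

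Signalling peptides of neurons and neurosecretory cells gave the largest differences on the side of the brain. Of 35 genes for neuropeptides and peptide hormones, 28 were tested and 27 were called higher in the brain, with a median of -3.28; in the 4 lines 26 were, and with edgeR on the D. melanogaster counts 14. The hugin gene hug (FBgn0028374), whose peptides act on feeding, had brain levels of 30.5 to 127, with a median of 59.1, and disc levels of 0.14 to 9.09, with a median of 0.493. The highest disc level was that of RAL-208, and the tissues did not overlap. The difference was -4.98 (SE 0.36), or 31.5-fold higher in the brain. The myosuppressin gene Dms differed by -4.31 (SE 0.47), the pyrokinin and periviscerokinin gene capa by -4.24 (SE 0.41) and the corazonin gene Crz by -3.96 (SE 0.36). The insulin-like peptide genes Ilp2 and Ilp3, made by median neurosecretory cells, stood at 35.8 to 132 and 19.3 to 74.5 in the brain. In the disc their medians were 1.75 and 1.96, with a highest Ilp2 level of 32.4. In reads, Ilp2 had 171 in the disc and 1134 in the brain of RAL-208, and 9 and 635 in Canton S. The genes hug, Dms and Ilp2 were not called with edgeR on those counts (adjusted p = 0.0605, 0.057 and 0.0818). The exception was Nplp4, which was not called at 1.53 (SE 0.71) and varied from -1.73 in Canton S to 5.62 in D. mojavensis; it was called higher in the disc without Canton S and in the 4 lines, where the difference was 1.32.

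Of 8 genes for peptide processing and release, 7 were higher in the brain. The amidating lyase gene Pal2 stood at 49.4 to 131 in the brain against 2.91 to 28.1 in the disc, a difference of -3.33 (SE 0.23). The prohormone convertase gene amon differed by -2.68 (SE 0.25) and its chaperone gene 7B2 by -2.81 (SE 0.33). The paralog Pal1 was the single gene higher in the disc, at 0.50 (SE 0.070), in all 9 lines. The bHLH gene dimm, which gives peptidergic cells their secretory capacity, reached only 0.832 to 3.47 in the brain and had a median of 0.251 in the disc.

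Of 14 genes for transmitter synthesis and transport, 13 were higher in the brain, with a median of -2.77 (11 in the 4 lines). The vesicular glutamate transporter gene VGlut (FBgn0031424) stood at 37.4 to 106 in the brain, with a median of 51.6, and at 0.217 to 17.6 in the disc, with a median of 2.96. RAL-208 was highest in both tissues, and no disc library reached a brain library. The difference was -3.84 (SE 0.39). It was -4.62 in the 4 lines, but VGlut was among the brain markers by which lines were left out, so this value is not independent of that choice. The GABA synthesis gene Gad1 differed by -3.64 (SE 0.31), the GABA transporter gene VGAT by -3.37 (SE 0.41) and the glutamate uptake gene Eaat1, a glial transporter, by -3.26 (SE 0.35). The tyrosine hydroxylase gene ple, which acts in dopamine neurons and also in tanning of cuticle, was not called at 0.28 (SE 0.47). It spanned 1.58 to 28.3 in the disc and 1.52 to 14.2 in the brain.

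Transmitter receptors gave 23 of 24 higher in the brain with a median of -2.54. The nicotinic receptor genes nAcRalpha-96Ab and nAcRbeta-96A differed by -3.62 (SE 0.30) and -3.60 (SE 0.33), and the glutamate-gated chloride channel gene GluClalpha by -3.26 (SE 0.33). The nicotinic subunit gene nAcRbeta-21C was the exception, with medians of 5.92 in the disc and 4.26 in the brain and a difference of 0.43 (SE 0.30) that was not called. All 16 voltage-gated channel genes tested were higher in the brain, with a median of -1.86, and again all 16 in the 4 lines. The potassium channel gene Sh stood at 12.1 to 38.9 in the brain and 0.814 to 4.99 in the disc, a difference of -2.57 (SE 0.27). Of 15 genes of synaptic vesicle release, 14 were higher in the brain, with the complexin gene cpx at -3.03 (SE 0.42) and Rab3 at -2.80 (SE 0.31). For comparison with another disc, cpx had a median of 17.6 in the disc against 1.29 in the wing disc, and Rab3 15 against 1.78. The AP180 gene lap, which serves endocytosis, was not called at -0.25 (SE 0.10).

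Of 9 genes for neuronal RNA-binding proteins and the cytoskeleton, 8 were higher in the brain, with a median of -1.12, and 5 in the 4 lines. The ELAV-family gene elav (FBgn0260400), expressed in all postmitotic neurons, stood at 99.2 to 341 in the brain and at 27.3 to 116 in the disc, with a median of 75.5. The ranges met, yet elav was higher in the brain in all 9 lines, and the wing disc had a median of 16.2. Its difference was -1.65 (SE 0.19). Its relative fne, which follows elav during neuronal maturation, differed by -3.95 (SE 0.45), and the zinc finger gene nerfin-1, which keeps young neurons differentiated, by -2.45 (SE 0.34). The amyloid precursor-like gene Appl differed by -1.17 (SE 0.38), with medians of 135 and 263 and 8.33 in the wing disc; its call was lost in the 4 lines.

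Surface proteins that match neurons with their partners were strongly on the side of the brain. All 13 dpr genes tested were called there with a median of -2.04 (11 in the 4 lines), and 12 of 13 beat genes with a median of -2.74 (11 in the 4 lines). The gene dpr14 stood at 8.87 to 20.6 in the brain and 0 to 3.48 in the disc, a difference of -3.03 (SE 0.22). For beat-Ia, which loosens motor axons from their bundles, the levels were 16.8 to 31.2 and 0.302 to 4.06 and the difference -3.39 (SE 0.22). The exception was beat-IIIc, with medians of 21.1 in the disc and 14.7 in the brain, which was not called at 0.15 (SE 0.16) and was called higher in the disc in the 4 lines at 0.54. Genes of axon guidance and adhesion were mixed, with 15 of 31 higher in the brain and 8 in the disc, counts that the 4 lines repeated. The adhesion gene Con differed by -3.08 (SE 0.29), the Slit receptor gene robo3 by -2.08 (SE 0.31), the netrin gene NetB by -2.04 (SE 0.22) and Dscam by -1.81 (SE 0.16). Higher in the disc were the semaphorin gene Sema-5c at 1.51 (SE 0.12), the septate adhesion gene Fas3 at 1.44 (SE 0.091) and the Robo regulator gene comm at 1.12 (SE 0.15). For Fas3 the disc level was 174 to 285 and the brain level 48.3 to 121.

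Neuroblast genes were mostly higher in the brain, 13 of 19 against 3, with a median of -1.67; the counts were 13 and 3 in the 4 lines as well. The snail-family gene wor (FBgn0001983) stood at 13.5 to 53.6 in the brain, with a median of 49.7, and 0.393 to 13.4 in the disc, with a median of 3.69. RAL-208 held the highest disc level, and the difference was -2.88 (SE 0.26). The homeobox gene pros, which ends self-renewal in daughter cells and is also used in photoreceptors and cone cells, differed by -3.39 (SE 0.41), the temporal gene cas by -3.16 (SE 0.25) and ase by -2.29 (SE 0.23). On the side of the disc were 3 members: grh, an epithelial and neuroblast factor, at 1.76 (SE 0.11), the proneural gene sc at 1.27 (SE 0.12) and klu at 0.65 (SE 0.11). The self-renewal gene dpn was not called at -0.13 (SE 0.11), with 19.1 to 39.5 in the disc and 19.3 to 39.7 in the brain. Of 11 genes of the optic lobe and brain regions, 8 were higher in the brain, among them the homeobox genes otp at -2.73 (SE 0.15), Rx at -2.20 (SE 0.20) and bsh at -1.83 (SE 0.17). For otp the disc level was 0 to 1.17. The head gap gene ems was higher in the disc at 1.77 (SE 0.12), with 24.9 to 52.8 against 5.17 to 21.6.

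Of 14 glial genes, 8 were higher in the brain and 3 in the disc (7 and 2 in the 4 lines). The gene wrapper, whose product lets glia ensheathe axons, stood at 63.2 to 128 in the brain and 3.97 to 15.5 in the disc, a difference of -3.27 (SE 0.27). The fate regulator gcm, which also acts in lamina neurons, differed by -1.91 (SE 0.19), with 1.59 to 12.4 in the disc. On the side of the disc were Gli, described above, and the Ets gene pnt at 0.88 (SE 0.11), a transducer of EGFR signals in the eye as well. The engulfment receptor gene drpr was not called at -0.13 (SE 0.090).

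**Figure D5:**
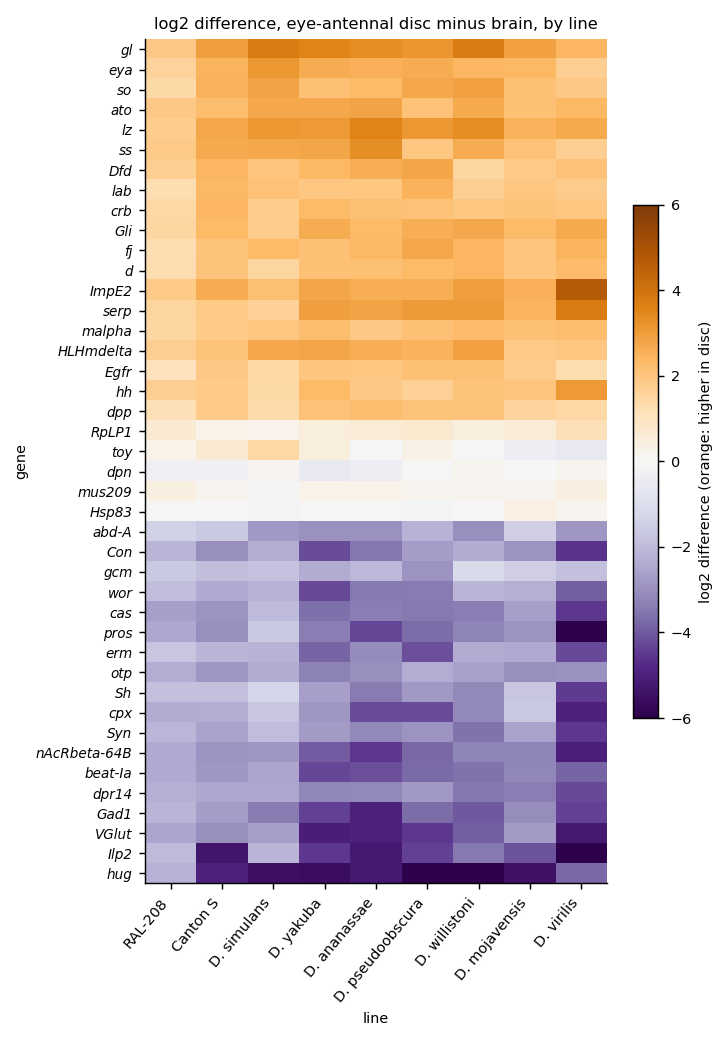
The log2 difference, eye-antennal disc minus brain, of 42 genes (rows) in the 9 lines (columns), orange where the disc was higher and violet where the brain was higher, on a scale from -6 to 6. Rows from gl to dpp are orange and those from abd-A to hug violet in every line, with small differences of RpLP1, toy, dpn, mus209 and Hsp83 between them.

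Markers of other tissues that could be carried along in dissection were measured in the same libraries. Ring gland transcripts were as high in the disc as in the brain, with summed levels of 100 to 590 and 123 to 508, against 7.12 to 170 in the wing disc. The steroid synthesis gene sad stood at 31.5 to 157 in the disc and 27.7 to 156 in the brain, and the adipokinetic hormone gene Akh at 34.5 or more and 52.7 or more; neither was called. Only Ptth, a peptide of brain neurons, was called of the 6 ring gland markers, at -1.87 (SE 0.21). Muscle transcripts summed to 156 to 1402 in the disc and 29.7 to 1046 in the brain. Of 11 muscle genes 6 were called higher in the disc, with a median of 1.1, and 9 in the 4 lines, with a median of 2.14; the troponin gene up led at 1.61 (SE 0.45). The 5 fat body genes tested were not called and spread widely, with Lsp1gamma from -3.49 in D. yakuba to 7.67 in D. mojavensis, and its summed list ran from 111 to 11660 in the disc and from 148 to 3121 in the brain. The 6 hemocyte genes were not called either, with sums of 8.11 to 166 and 3.89 to 196. Of the 6 tracheal genes, 4 were higher in the disc, with sums of 498 to 1118 against 100 to 277. The tracheal selector genes trh and vvl were higher in the brain at -1 (SE 0.15) and -1.09 (SE 0.21), while serp, described above, and the zona pellucida gene pio at 2.28 (SE 0.14) led on the side of the disc; pio had a median of 308 in the wing disc. The forkhead gene fkh was the only 1 of 9 salivary gland markers tested. It was higher in the brain at -2.47 (SE 0.34), with 15.6 to 36.3 against 0.421 to 11.9. The others had no value in some lines, and none of them had a single sign in all lines measured. Among them the glue gene Sgs5 was higher in the disc in 4 lines and in the brain in 4. Its level was 13.5 to 624 in the disc and 10.6 to 151 in the brain. Of 7 adult muscle precursor genes, 2 were called higher in the disc and 3 in the brain (2 and 2 in the 4 lines). Their median difference was -0.074, and their summed level had a median of 121 in both tissues. Among them zfh1, which glia use too, had the largest difference, -1.58 (SE 0.18). Whether these cells contributed to any difference above was not tested.

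Cytoplasmic ribosomal proteins had a higher share of calls than the other housekeeping groups below. Of 67 cytoplasmic ribosomal protein genes tested, 64 were called higher in the disc, and 61 in the 4 lines. After quantile normalisation 30 of the 67 were, with a median of 0.12. The count was 17 without the line as a block and, with edgeR on the D. melanogaster counts, 0 of 82 (48 higher in the disc at an unadjusted p under 0.05, with a median of 0.45). Their differences were small and alike, with a median of 0.45 and a highest value of 0.61 for RpS20. For RpLP1 the disc level was 2579 to 4547 and the brain level 1692 to 3356, with a difference of 0.57 (SE 0.085) and a higher disc in all 9 lines. The gap between long and short genes described above was most negative in D. virilis and RAL-208, and its part in this difference was not tested; without D. virilis 65 were called, with a median of 0.39. RpL10 was not called at -0.22 (SE 0.45), and in D. virilis it stood at 104 in the disc and 3536 in the brain; without that line its difference was 0.38 and it was called. Mitochondrial ribosomal proteins gave 11 higher and 1 lower of 61, with a median of 0.10, a share below the 25.8% of all genes; 7 were higher without RAL-208 or without D. virilis, 4 in the 4 lines and, with limma and no block, 0 (1 at an unadjusted p under 0.05), as with edgeR on the D. melanogaster counts (5 at an unadjusted p under 0.05). Proteasome, cytochrome oxidase and glycolysis genes were nearly all not called, with medians of -0.015, -0.032 and 0.018.

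DNA replication genes were mostly not called, and cyclins and mitotic regulators were called in both directions. Of 20 DNA replication genes, 4 were higher in the disc, 2 in the brain and 14 were not called, and their median was -0.011; all 6 calls were lost in the 4 lines, where limma left 2 genes at an unadjusted p under 0.05, and the 4 on the side of the disc when Canton S was left out. The ribonucleotide reductase gene RnrS stood at 106 to 341 in the disc and 94.6 to 334 in the brain, a difference of 0.061 (SE 0.070) that was not called. Of 23 cyclins and mitotic regulators, 10 were higher in the disc and 4 in the brain, 7 and 2 in the 4 lines, and 3 and 1 without the line as a block. The growth regulator Cdk4 differed by 1.29 (SE 0.12), the Cdc25 gene stg, which the furrow uses to time mitosis, by 0.98 (SE 0.13) and polo by 0.76 (SE 0.080). The gene rap, an activator of the anaphase-promoting complex that holds cells in G1, was higher in the brain at -1.14 (SE 0.10), with 41.0 to 80.8 there and 21.2 to 39.0 in the disc. Of the ecdysone genes, 3 of 13 were higher in the disc (23.1%) and 2 in the brain (15.4%). The temporal factor Eip93F was at -2.29 (SE 0.34) and the receptor gene Hr78 at 0.83 (SE 0.077). Other ecdysone genes had no value in some lines and were not tested. Of these, Hr46 was higher in the disc in all 8 lines measured, by a median of 1.98. Hr4 was higher there in 7 of 8 and br in 6 of 7. Eip75B and Eip63F-1 were higher in the brain in all 8 lines measured, by medians of -0.55 and -1.29. Of 21 tetraspanin genes, which encode small membrane organisers, 5 were higher in the disc (23.8%) and 4 in the brain (19%). For both lists the shares were below those of all genes, 25.8% and 26.8%. In the 4 lines the tetraspanin counts were 3 and 5. The largest tetraspanin differences were those of Tsp42Ea, higher in the disc at 2.12 (SE 0.15), and Tsp5D, higher in the brain at -2.54 (SE 0.21).

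Several genes with the largest differences carry only a CG number and no role is given for them here. CG4914 stood at 40.7 to 247 in the disc and 3.50 to 41.9 in the brain, with a difference of 2.99 (SE 0.20), and 154 as its median in the wing disc. CG13064 had the largest difference on the side of the disc, 3.35 (SE 0.43), and was 6.02 in D. virilis against 2.32 to 4.12 in the other lines. On the side of the brain CG12239 differed by -4.57 (SE 0.38), CG14989 by -4.21 (SE 0.43) and CG4409 by -4.06 (SE 0.42). For CG4409 the brain level was 186 to 342 and the disc level 4.63 to 45.1. Each of these 5 genes had a single sign in all 9 lines.

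The genes most alike between the tissues at high level were Df31, a nucleosome-binding factor, the chaperone gene Hsp83, the GTPase genes Arf79F and ran, the mitochondrial channel gene porin and the RNA-binding gene Hrb87F. Their differences lay between -0.029 for ran and 0.057 for porin, and their 95% intervals within 0.2 of 0. Df31 stood at 527 to 3173 in the disc and 433 to 3374 in the brain, so that its level varied several-fold between lines while its tissue difference was -0.023 (SE 0.066). Hsp83 differed by 0.0046 (SE 0.077), and by -0.33 after quantile normalisation, under which Hsp83, Df31 and ran were called higher in the brain.

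The lines shared the fitted direction to different degrees. Of the 1978 genes called higher in the disc, 83.9% had that sign in D. simulans, the lowest share, and 90.6% to 96.9% in the other lines. Of the 2061 genes higher in the brain, the share was 89.9% in D. simulans and 93.9% to 97% elsewhere. The median difference of the disc genes ran from 0.37 in D. simulans to 0.797 in D. virilis, and that of the brain genes from -0.624 to -1.28 in the same lines. The line counts towards its own call here, so these shares describe the lines and test nothing.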

How the data were processed

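RNA-seq libraries of eye-antennal discs, wing discs and brains were assigned to tissue and line from the labels. Per the submitters' processing notes, TopHat2 2.0 and HTSeq were used, and no source used here names the genome build. The authors deposited a normalised signal and read counts for the 27 libraries. Of the counts, only those of D. melanogaster were fitted. In D. melanogaster the deposited signal equals the count divided by 1 constant per gene and 1 factor per library. Library totals ran from 3642547 to 12811084 in the disc and from 4943047 to 20473119 in the brain.

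Genes with a value in all 27 libraries (9832) and at least 1 in at least 9 libraries (7677) were fitted as log2 of signal plus 1 with limma 3.58.1 in R 4.3.3, with tissue and line as terms, 16 residual degrees of freedom, an intensity trend and Benjamini-Hochberg adjustment over all 7677. The block follows from the labels, since both tissues come from the same line; deviations of the tissues of a line correlated at 0.647 to 0.863, and those of different lines at up to 0.777. The lines serve as replicates, and n = 9 limits the precision. The p-values set the tissue difference against the spread left over all 27 libraries after line and tissue are fitted. The fit was tested on simulated data. edgeR 4.0.16 on the deposited D. melanogaster counts, other pseudocounts, filters and scalings, and leaving out lines were alternatives. Genes in the text come from a rule (the 15 largest differences each way with a mean of at least 10 and the same sign in every line, up to 5 called, 3 opposite and 2 uncalled members per list, the most variable and the most alike), with exceptions stated; the members and lists were chosen with earlier results of these data known. No sequences are shown, since none were used here.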

Additional observations from a re-analysis of the deposited data

Results flagged for a closer look

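In single lines, 14 of 186 genes named in the text stood apart from the other 8 lines, by a gap to the nearest line above 0.493 of the whole range (Dixon's criterion for 9 values). Chance flags about 1 in 20 such groups. Of the 14 genes, 10 were set apart by D. virilis, whose eye-antennal library also differed by gene length. The log2 difference, eye-antennal disc minus brain, of Tctp was -10.9 in D. virilis, with levels of 0.99 and 3789, and lay between 0.012 and 0.63 in the other lines. RpL10 was at -5.08 against 0.014 to 0.79 elsewhere. In the same line CG13064 was at 6.02 and ImpE2 at 4.69, both above the other lines. Below the other lines were zfh1 at -2.95, Appl at -2.68, ct at -2.3, mam at -1.85, stan at -1.82 and stg at -0.23, the last against 0.72 to 1.48.

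In RAL-208 the differences of ru, at 1.58, and Cont, at 1.14, were the smallest of the 9 lines. The eye markers in the RAL-208 brain stood at 27% of their eye-antennal level, against 8.47% to 15% in the others. In D. yakuba ci was at 2.55 against 1.19 to 1.86, and in D. pseudoobscura eys was at -0.69 against -3.23 to -2.1. Whether any of these differences belongs to the library or to the line was not tested.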

How the results depend on the processing

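Of the genes tested, 4039 were called. Without the line as a replicate block the total was 2122, with 912 higher in the disc and 1210 in the brain, all among the main calls. With edgeR on the D. melanogaster counts alone, with 2 residual degrees of freedom, it was 1988, with 887 and 1101 (3287 of 9041 at an unadjusted p under 0.05), and 309 members of the gene lists were called against 491. Under the other pseudocounts, filters and scalings the total was 3534 to 4405. With each line left out in turn it was 3682 to 4006, with 1790 to 1969 higher in the disc and 1892 to 2037 in the brain. Calls higher in the disc made up 49% of all calls, 43% without the block and 54.7% after quantile normalisation.

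The planned setting left out only the 4 lines with brain markers above 10%, and gave 3328 calls. Leaving out D. virilis together with these 4 lines was chosen after seeing the data, and gave 3067 calls. Of 104 list counts, 15 moved by over 1.5 times in the planned setting and 17 in the other. Directions reversed for RpL10, from -0.22 to 0.38 without D. virilis and 0.44 without the 5 lines, and for Tctp, from -0.91 to 0.34 and 0.37 (with each other line left out, down to -0.35 and -1.1), and for Hsp83, from 0.0046 to -0.33 after quantile normalisation. For Hsp83 the cause was not tested. With edgeR 31 of 141 named genes were no longer called: gl, hug, Dms, Ilp2, Abd-B, Eaat1, Eip93F, LanA, Lim1, Ptth, Ras85D, RpLP1, RpS20, Stat92E, TwdlE, Wnt10, Wnt2, al, alpha-Cat, bsh, car, dimm, dor, ey, fkh, gcm, klu, pb, run, st and up. Without the block 8 of 151 were not: Ras85D, RpS20, alpha-Cat, car, dome, dor, ey and trol. Of 104 list counts, 22 moved by over 1.5 times without the block and 39 with edgeR, where retinal determination fell from 8 to 5, septate junctions from 10 to 6, EGFR genes from 11 to 7 and Wnt genes from 8 to 5 on the side of the disc. When lines were left out, changes of named genes stand beside them, and in addition Dsor1 and lap were called without D. pseudoobscura (-0.20 and -0.30), mus209 without D. simulans or D. pseudoobscura (0.23 and 0.21) and Lcp2 without D. simulans (2.16). Counts of 2 on the brain side fell to 1 for Hedgehog and Dpp without RAL-208, D. yakuba, D. ananassae or D. pseudoobscura, for phototransduction without RAL-208, Canton S, D. ananassae or D. virilis, and for apical polarity without D. ananassae or D. virilis. Genes with low signal and genes with no value in a line were not tested, and 1 library per tissue and line limits statements on single lines.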

Other observations

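Some genes were far higher in the brain than in the disc of a few lines, a pattern that not all lines shared. CG5084 stood at 1325 in the brain and 0.999 in the disc of RAL-208, at 124 and 0.807 in Canton S and at 81.2 and 0.706 in D. mojavensis. In D. ananassae and D. willistoni CG5084 was high in both tissues, and its difference over the 9 lines, -2.25 (SE 1.43), was not called. CG14300 and CG12934, with differences of -2.54 (SE 1.44) and -2.68 (SE 1.32), were likewise not called.

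Genes higher in the brain had longer exonic sequence, with a median of 3058 bases, than genes higher in the disc, with 2122, or genes that were not called, with 1806. The gap in tissue difference between long and short genes varied by line, from -1.12 in D. virilis to 0.16 in D. simulans. Its part in these lengths was not tested. Of the annotated genes, 16.2% of those called higher in the brain lay on the X chromosome, as did 14.7% of those higher in the disc, 14.3% of those not called and 14.9% of all tested. The translationally controlled tumour protein gene Tctp stood at 0.99 in the D. virilis disc and 3789 in the D. virilis brain.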
